A study of Mus musculus with 3 samples.

Results

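The genes that turn Okazaki fragments into a continuous lagging strand, with those that coat single-stranded DNA, were followed over 3 passages of mouse embryonic stem cells in which Pold3 can be deleted by induction. The 10 members were the flap nucleases Fen1 and Dna2, the ligase Lig1, the RNase H genes Rnaseh1, Rnaseh2a, Rnaseh2b and Rnaseh2c, and the replication protein A (RPA) genes Rpa1, Rpa2 and Rpa3. They were chosen by symbol, and all 10 matched an Ensembl ID among the 50043 gene IDs of the deposited table. RNA was sequenced from 1 library each at passages P0, P1 and P2 of KH2, a mouse stem cell line built for inducible transgenes, and the question was how transcript levels change with passage. All libraries carry the inducible Pold3 allele. The labels do not say how the knockout was induced, or when relative to P0. Since each passage has 1 library, the spread between replicates is unknown and nothing below carries a p-value. For the same reason, passage, the level of Pold3 and the library itself vary together. They cannot be told apart, and the part of each in a difference was not tested.

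The lagging strand is made as short pieces, each begun by an RNA-DNA primer. As DNA polymerase delta, the complex in which POLD3 is an accessory subunit, runs into the next piece, it lifts the old primer into a flap. FEN1 cuts short flaps, DNA2 trims long flaps that RPA has coated, RNase H enzymes remove RNA paired to DNA, and ligase I seals the remaining nick. RPA, a complex of a large, a middle and a small subunit, binds single-stranded DNA wherever it is exposed and serves as a platform for checkpoint and repair proteins.

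The regulatory DNA just before the start of Rpa1, Rpa2, Rpa3 and Rnaseh2a is shown because each of these windows holds a CCAAT box, a short element bound by the factor NF-Y. The 100 bases that end 1 base before the RefSeq start are given on the gene's strand, 5′ to 3′, from RefSeq on build GRCm38.p6, with CCAAT or its reverse complement ATTGG in capitals. They lie at chr11:75348384-75348483 (minus strand) for Rpa1, chr4:132768260-132768359 (plus strand) for Rpa2, chr6:8259142-8259241 (minus strand) for Rpa3 and chr8:84966077-84966176 (minus strand) for Rnaseh2a.
Rpa1: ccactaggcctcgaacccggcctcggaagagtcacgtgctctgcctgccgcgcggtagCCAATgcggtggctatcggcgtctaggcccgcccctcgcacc
Rpa2: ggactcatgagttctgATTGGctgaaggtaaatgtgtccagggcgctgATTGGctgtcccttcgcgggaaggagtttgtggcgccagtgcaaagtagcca
Rpa3: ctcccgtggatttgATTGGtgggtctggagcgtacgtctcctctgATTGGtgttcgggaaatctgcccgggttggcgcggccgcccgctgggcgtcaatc
Rnaseh2a: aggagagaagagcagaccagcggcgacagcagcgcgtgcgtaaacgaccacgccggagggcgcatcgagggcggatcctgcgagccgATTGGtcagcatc

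Of the 10 members, 8 had an entry in the RefSeq promoter table and Rnaseh1 and Rnaseh2b had none. In the 250 bases before the start, the box was found on either strand in 4 of these 8 genes, which include all RPA subunits. Rpa2 held it at 231, 84 and 52 bases before the start, counted to the first base of the match, Rpa3 at 86 and 55, Rpa1 at 42 and Rnaseh2a at 13. Counted by start, 4 of the members' 11 windows held the box, near the 33.8% of all 32851 promoters of this length. The letters of an E2F site, TTTCCCGC, TTTCGCGC, TTTGCCGC or TTTGGCGC on either strand, were in 0 of the 11 windows of the members and in 1.86% of all promoters. With a share that low, 0 of 11 windows does not set the members apart from other promoters. Shorter or looser forms of the site were not searched. These matches describe letters in a window and were not tested as sites.

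Values are the deposited FPKM (fragments per kilobase of gene, relative to the library's total), from which whole reads were recovered. The libraries held between 18059914 (P1) and 23213528 (P0) reads. Intervals are exact 95% intervals on recovered reads. They reflect counting error alone, because each passage has 1 library, and they treat every read as a separate molecule. PCR copies cannot be told from separate molecules here, so the intervals may be too narrow. Pold3, the targeted gene, measured 49.2, 13.0 and 11.6 FPKM at P0, P1 and P2, and its P2 level was 4.23-fold lower than at P0 (interval 3.74 to 4.79). All 8 markers of embryonic stem cells were at 113 FPKM or more in every library, with sums of 3683, 3635 and 3977 FPKM. Of 8 fibroblast markers, listed because feeder cells are often present, 6 were under 1 FPKM in each library, Postn was listed at 0, and the sums were 6.98, 16.6 and 19.2 FPKM. Of those above 1, Col1a1 and Thy1 were past 2-fold higher at P2 than at P0, at 7.09 and 11.0 FPKM against 1.98 and 4.21. Among the stem cell markers Esrrb and Fgf4 differed most at P2 on the log2(FPKM + 1) scale, by -0.90 and 0.54. The part of either marker list in the members' differences was not tested. Pold3 had dropped by the P1 library, so comparisons with P0 differ in passage and in Pold3 level at once.

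**Figure D1:**
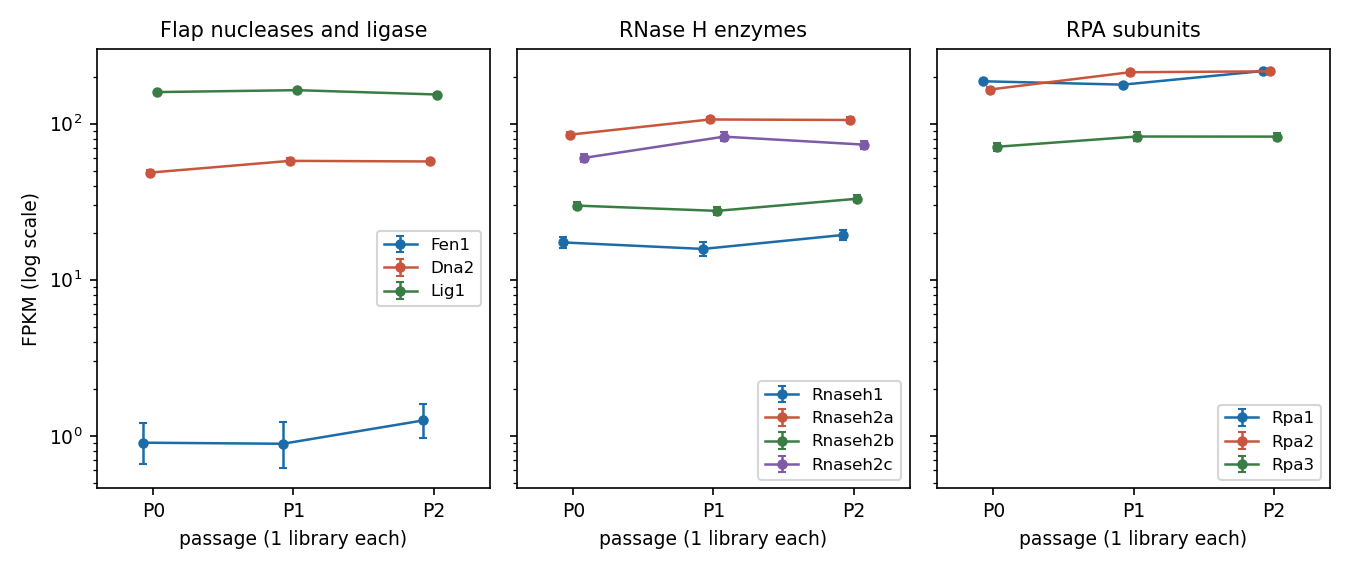
FPKM of the 10 members (log axis) against passage, with 1 library per point and exact 95% Poisson intervals on recovered reads, lines joining the points of a gene. All members but Fen1 lie between 15.7 and 217 FPKM, while Fen1 lies at 0.889 to 1.25 FPKM.

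Lig1, which encodes the ligase that joins Okazaki fragments, measured 159, 164 and 153 FPKM at P0, P1 and P2, from 8035, 6431 and 7484 reads. No pair of its levels differed by more than 1.07-fold, and it was the 1 member whose deposited FPKM was below P0 at P2. The P2 to P0 ratio was 0.965 (interval 0.935 to 0.996). The P1 to P0 ratio was 1.03 (interval 0.995 to 1.06), and its direction turned with median-of-ratios scaling. Among genes with FPKM of at least 1, Lig1 stood at percentiles 93.6, 94.2 and 93.7.

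Dna2, the helicase and nuclease for long flaps, measured 48.5, 57.7 and 57.2 FPKM. The later libraries lay close together, with a P2 to P1 ratio of 0.991 (interval 0.943 to 1.04), and both were above P0. The ratio to P0 was 1.19 at P1 (interval 1.13 to 1.25) and 1.18 at P2 (interval 1.12 to 1.24).

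Fen1, the main flap nuclease, was listed far below every other member, at 0.903, 0.889 and 1.25 FPKM from 47, 36 and 63 reads. The next lowest member, Rnaseh1, stood at 15.7 FPKM or more. No difference between libraries was detectable for Fen1 with so few reads, since the P2 to P0 ratio of 1.39 had an interval of 0.937 to 2.07. Exon sharing was counted on the gene models of GENCODE release M21. Fen1 shares 2039 of its 2422 exon bases (84.2%) with exons of other genes, all on the opposite strand. The antisense gene Gm10143 covers 1909 of them and Tmem258 covers 130. All 1140 coding bases of Fen1 lie under exons of another gene.

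Reads were few for Gm10143 as well, at 8, 12 and 6 in the 3 libraries, and its FPKM was 0.106, 0.204 and 0.0821. Tmem258, which shares 8.07% of its own exon bases with Fen1, measured 114, 122 and 121 FPKM. Counted over the 383 exon bases that no other gene shares, the Fen1 reads would amount to 5.29, 5.20 and 7.34 FPKM. All other members, counted over their own unshared exon bases, were at 8.34 FPKM or more. This takes every read to lie in unshared bases, which is not known. All exon bases of a gene were 1.08 times the length recovered from FPKM for Fen1, and 1.68 to 3.77 times for the other members. The counting thus lowers the other members through the length as well, and its gap to Fen1 is not comparable with that in FPKM.

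Protein-coding genes with as much sharing were low in general. Of 280 such genes with over 80% of their exon bases shared, 224 were listed at 0 at P0 and 14 reached FPKM 1. Among 15369 protein-coding genes with no shared bases, 29.6% were listed at 0 and 47.5% reached FPKM 1. Where the sharing was with the opposite strand alone, 81.7% of 71 genes were listed at 0, against 81.2% of 154 genes sharing with the same strand alone. Within the group above 80%, the FPKM of Fen1 was higher than that of 265 of the 279 other genes at P0. The sources used here do not give how reads over shared bases were counted, and the part of sharing in the level of Fen1 was not tested.

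**Figure D2:**
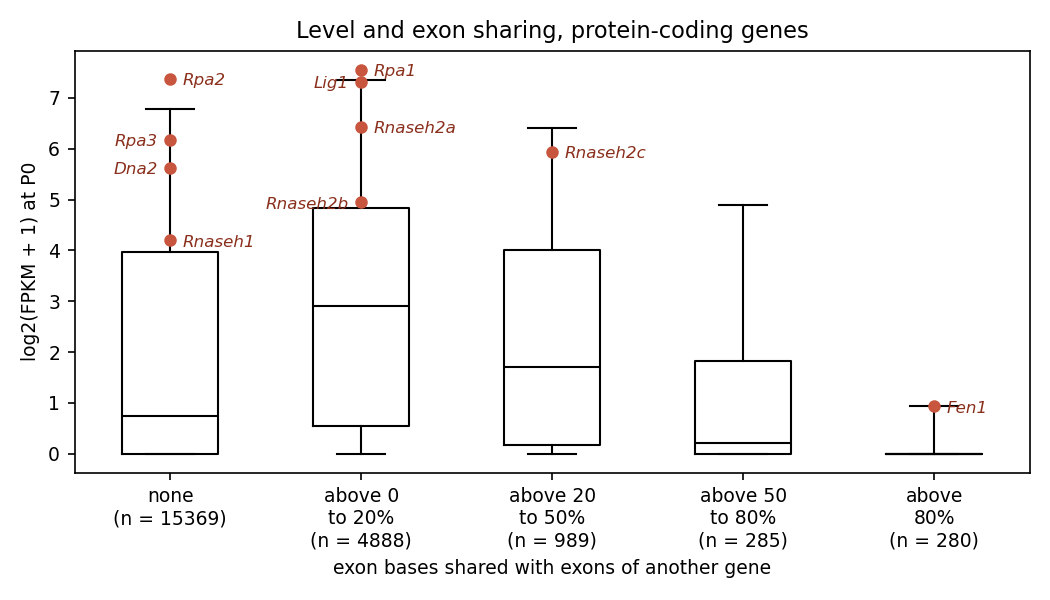
log2(FPKM + 1) at P0 of protein-coding genes, by the share of exon bases that lie under exons of another gene in GENCODE M21. Boxes give quartiles and medians, whiskers the percentiles 5 and 95, and red points the members. Fen1 is the 1 member above 80%, and the other members share 24.8% or less.

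Among the other members, sharing was smaller. Rnaseh2c shared 24.8% of its exon bases with Kat5 on the opposite strand, and Rnaseh2a shared 14.7%, with Gm49661 on the same strand and Prdx2 on the opposite one. Lig1 shared 5.79%, Rnaseh2b 1.06% and Rpa1 0.789%. Dna2, Rnaseh1, Rpa2 and Rpa3 shared none.

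Rnaseh1 encodes the single-subunit RNase H, which also acts in mitochondria. It measured 17.3, 15.7 and 19.3 FPKM from 586, 414 and 631 reads, with its low point at P1. The P2 to P1 ratio was 1.23 (interval 1.08 to 1.39), and the intervals of both ratios to P0 held 1.

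RNase H2 is the main cellular enzyme that removes ribonucleotides built into DNA, and RNASEH2A is its catalytic subunit. Rnaseh2a measured 84.8, 106 and 105 FPKM, from 2316, 2255 and 2776 reads. P1 and P2 lay together above P0, with ratios of 1.25 at P1 (interval 1.18 to 1.33) and 1.24 at P2 (interval 1.17 to 1.31).

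Rnaseh2c, one of the auxiliary subunits, measured 60.2, 82.4 and 73.3 FPKM. It had the highest P1 to P0 ratio of the members, 1.37 (interval 1.25 to 1.5), and was lower at P2 than at P1, with a ratio of 0.889 (interval 0.816 to 0.968). Rnaseh2b, the other auxiliary subunit, went the other way between these libraries. It measured 29.8, 27.6 and 33.0 FPKM, with a P2 to P1 ratio of 1.2 (interval 1.10 to 1.3) and a P1 to P0 ratio of 0.925 (interval 0.850 to 1.01). From P1 to P2 the 3 subunit genes thus went different ways, with Rnaseh2a at a ratio of 0.992 (interval 0.938 to 1.05).

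Rpa1, for the large DNA-binding subunit of RPA, measured 187, 177 and 217 FPKM from 9578, 7090 and 10755 reads. It was slightly lower at P1 than at P0, with a ratio of 0.951 (interval 0.923 to 0.981), and higher at P2 than at P1, with a ratio of 1.22 (interval 1.19 to 1.26).

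Rpa2, for the middle subunit that checkpoint kinases phosphorylate, measured 165, 213 and 216 FPKM. Its step came at P1, at 1.29-fold of P0 (interval 1.23 to 1.36), and the P2 to P1 ratio was 1.01 (interval 0.966 to 1.06). Rpa3, for the small subunit, measured 71.0, 82.6 and 82.5 FPKM, with a ratio to P0 of 1.16 at both later passages (intervals 1.07 to 1.27 at P1 and 1.07 to 1.26 at P2).

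**Figure D3:**
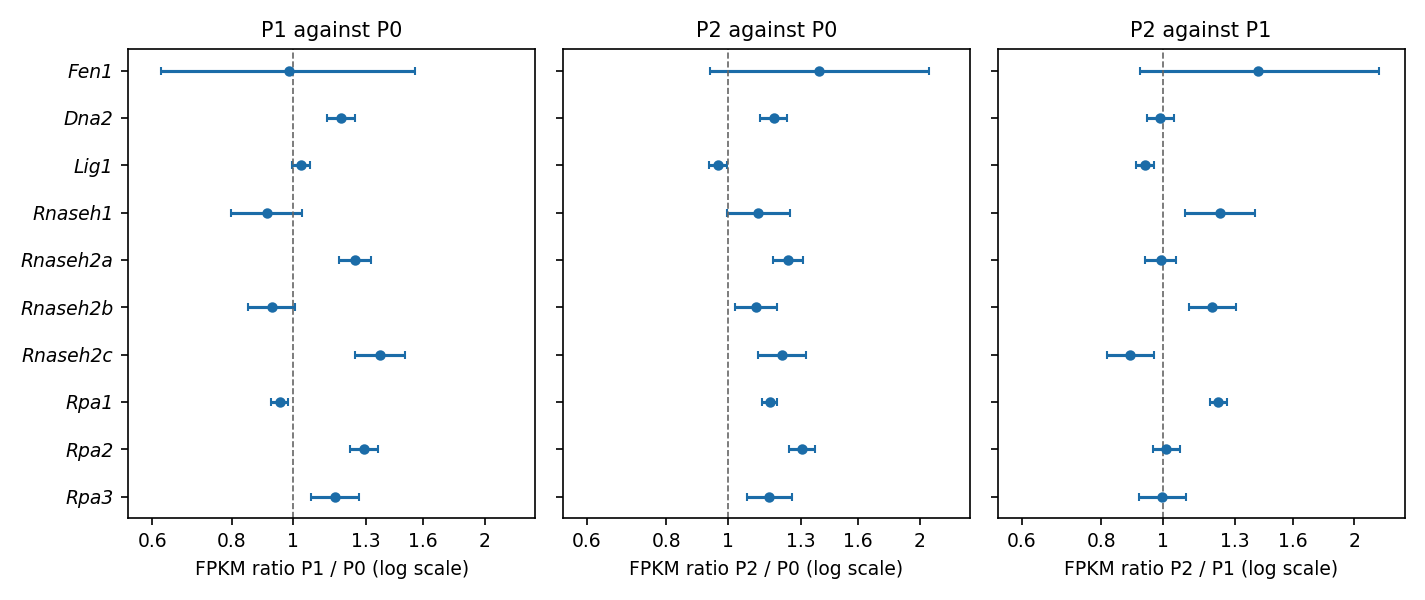
FPKM ratio of each member between 2 libraries (log axis), with exact 95% intervals on recovered reads and a dashed line at 1. The intervals of Dna2, Rnaseh2a, Rnaseh2c, Rpa2 and Rpa3 lie above 1 at P1 and P2 against P0, and those of Rpa1, Rnaseh1 and Rnaseh2b lie above 1 for P2 against P1.

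The members differed in which of these ratios had an interval above 1. The P1 to P0 and P2 to P1 ratios use the same P1 library, where Rnaseh1, Rnaseh2b and Rpa1 had their lowest FPKM. In Dna2, Rnaseh2a, Rnaseh2c, Rpa2 and Rpa3 the P1 to P0 interval lay wholly above 1, while in Rnaseh1, Rnaseh2b and Rpa1 the P2 to P1 interval did. So 5 of 9 compared members had an interval above 1 at P1 and 1 had it below, where 34.4% and 22.5% of all genes compared did. For P2 against P0 these were 7 and 1 of 10 members, beside 39.5% and 25.6% of all genes. For P2 against P1 they were 3 and 2 of 10, beside 24.0% and 18.9%. With median-of-ratios scaling the P1 to P0 interval was above 1 in 4 members (Dna2, Rnaseh2a, Rnaseh2c and Rpa2) and below 1 in 4 (Lig1, Rnaseh1, Rnaseh2b and Rpa1), where 24.0% and 34.8% of all genes were. At P2 against P0 it was then above 1 in 5 members, which no longer included Rpa3 and Rnaseh2b, and below 1 in 1, beside 29.0% and 37.3% of all genes. The 3 and 2 members for P2 against P1 were the same genes. An interval that leaves out 1 compares 2 libraries, not passages. Such intervals are narrower with more reads, and the shares over all genes were not matched for read number. Members other than Fen1 had at least 414 reads in each library. Their FPKM was 15.7 or more, while the median of genes with FPKM of at least 1 was 13.9 at P0.

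On the scale of log2(FPKM + 1), which understates the change of low genes, 0 of the members passed a difference of 1 in any of the 3 comparisons, here called 2-fold. Genes were compared where FPKM was at least 1 in 1 or both libraries. This left 9 members for P1 against P0, since Fen1 was under 1 in both, and 10 for the other comparisons. Among all genes compared, 4.12% were past 2-fold higher and 0.549% lower at P1 against P0, 6.72% and 1.16% at P2 against P0, and 0.78% and 0.883% at P2 against P1. The share of higher genes among those past 2-fold was 88.2% at P1 and 85.3% at P2, and 74.9% and 70.5% under quantile normalization.

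A smaller step of 0.3 was passed upward at P1 against P0 by Rnaseh2a, Rnaseh2c and Rpa2, with differences of 0.32, 0.45 and 0.37. These were 3 of 9 compared members, beside 24.9% of all genes, and 0 members passed it downward, beside 10.3%. At P2 against P0 Rnaseh2a and Rpa2 passed it, at 0.31 and 0.38. These were 2 of 10 members, beside 29.3% upward and 14.0% downward in all genes, so the members' share was not above the background. At P2 against P1, 0 members passed 0.3, beside 12.5% higher and 9.33% lower in all genes. Median-of-ratios scaling moved the median of all genes by -0.10 at P1 and -0.12 at P2 against P0. Under it 1 member passed 0.3 at P1, and 0 did at P2.

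The median difference at P1 against P0 was 0.13 over the 10 members and 0.22 over the 9 compared, without Fen1, where all genes compared had a median of 0.06. The median over the 10 members was 0.23 at P2 against P0, where all genes had 0.07. At P2, 9 of 10 members were above P0 (8 with quantile normalization, where Fen1 was below) and the differences ran from -0.05 for Lig1 to 0.38 for Rpa2, while 57.7% of all genes were above P0. For P2 against P1 the members' median was 0.01 and that of all genes 0.02, with 5 members above 0 and 5 below. With median-of-ratios scaling the members' median was 0.02 at P1 and 0.09 at P2 against P0, and that of all genes -0.05 at both. The comparisons with P0 share that library.

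**Figure D4:**
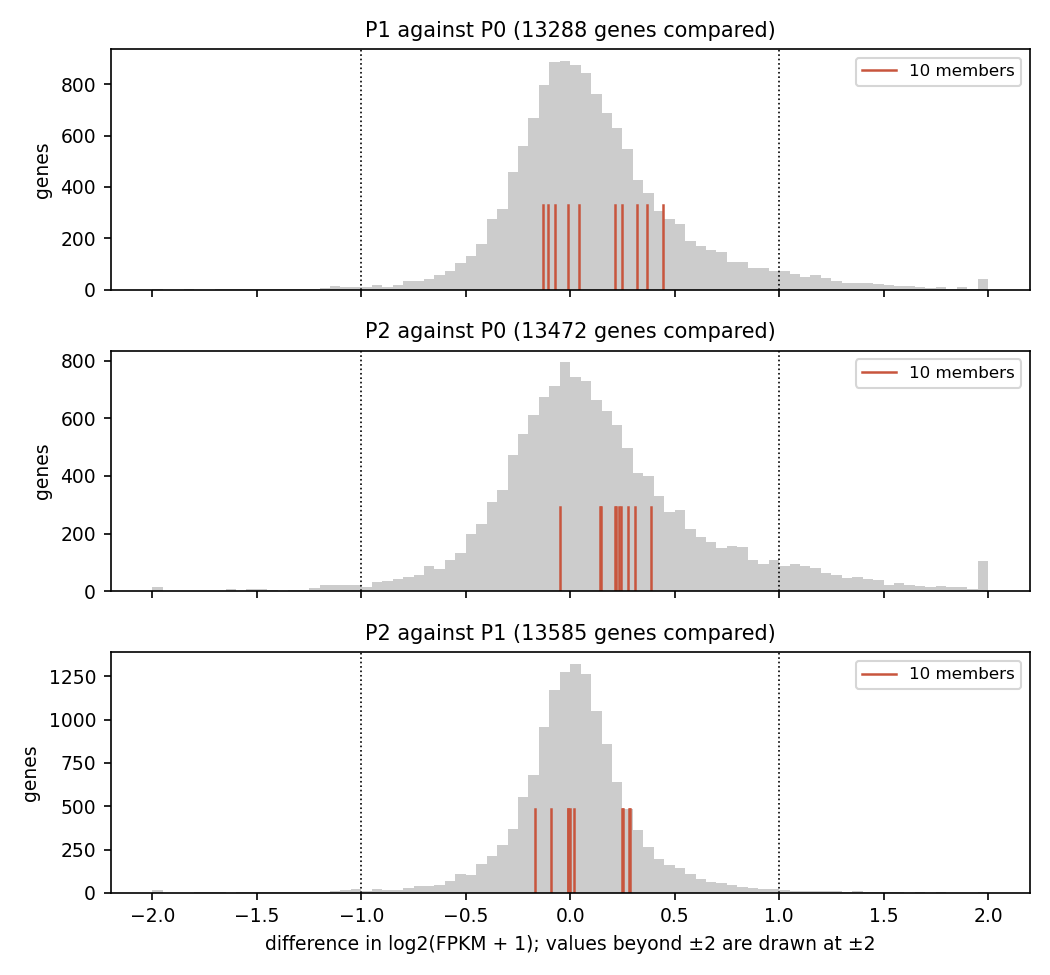
Histograms of the difference in log2(FPKM + 1) over all genes compared (grey), with the 10 members as red lines and dotted lines at -1 and 1. The members lie between -0.17 and 0.45 in all 3 comparisons, inside the dotted lines.

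Levels were also compared within the complexes, whose proteins are present in equal numbers of copies. As deposited, Rpa1, Rpa2 and Rpa3 made up 44.1%, 39.1% and 16.8% of their summed FPKM at P0. At P1 the shares were 37.5%, 45.0% and 17.5%, and at P2 42.1%, 41.9% and 16.0%. As deposited, Rpa2 was thus above Rpa1 at P1 alone, and at P2 their FPKM intervals overlapped (213 to 221 and 209 to 223).

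How low the share of Rpa3 was depended on the gene length behind FPKM. The length recovered for Rpa2 was 793 bases, the rounded mean of its annotated transcripts, while its exons cover 2993 bases. For Rpa1 these were 2212 and 5578 bases, and for Rpa3 676 and 1136. With reads per base of the exon union, the shares at P0 were 46.2%, 27.4% and 26.4% for Rpa1, Rpa2 and Rpa3. Per base of the longest transcript they were 36.3%, 32.3% and 31.4%. Rpa3 had the lowest share by all these lengths, except at P1 per base of the longest transcript, at 32.4% against 30.6% for Rpa1. At P1 the order of Rpa1 and Rpa2 turned with the length too, at 40.0% and 32.1% per base of the exon union. The length is the same in every library, so the ratios between passages do not depend on it.

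In RNase H2, Rnaseh2b had the lowest share by all these lengths. As deposited, Rnaseh2a, Rnaseh2b and Rnaseh2c made up 48.5%, 17.0% and 34.4% of their sum at P0, 49.1%, 12.8% and 38.1% at P1 and 49.8%, 15.6% and 34.6% at P2. Per base of the exon union Rnaseh2b had 14.5%, 10.7% and 13.2%, and per base of the longest transcript 13.7%, 10.1% and 12.5%. Its lowest share was at P1, where Rnaseh2b was at its lowest and Rnaseh2a and Rnaseh2c at their highest, so any gene length gives this. Rnaseh2a had the largest share as deposited and per base of the exon union, whereas Rnaseh2c had it per base of the longest transcript, at 45.1% against 41.2% for Rnaseh2a at P0.

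**Figure D5:**
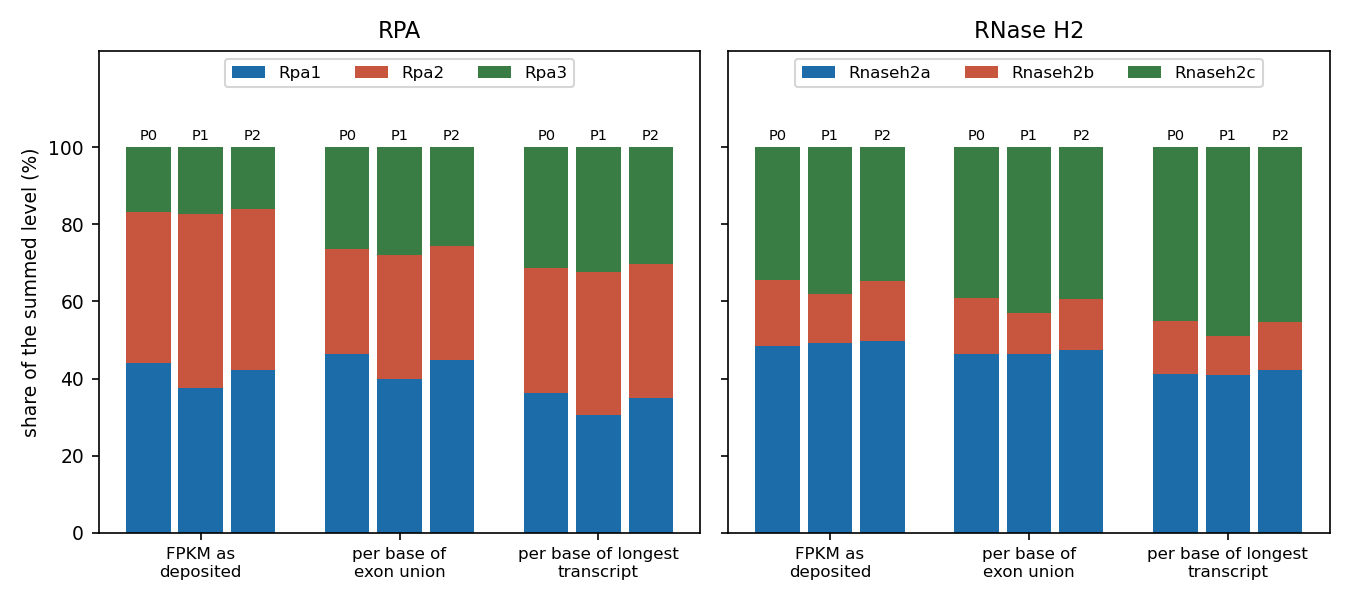
Share of each subunit gene in the summed level of RPA (left) and RNase H2 (right), in percent, at P0, P1 and P2 with 3 choices of gene length. Rpa3 has 16.8% at P0 as deposited and 31.4% per base of the longest transcript. It is the lowest in RPA except at P1 per base of the longest transcript, and Rnaseh2b is the lowest in RNase H2 throughout.

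Genes that work beside the members were counted from 4 lists. Of 19 partners in lagging strand synthesis (Pcna, genes of its loaders and unloaders, of polymerase alpha-primase and of polymerase delta without Pold3, and the replisome genes Wdhd1 and Mcm10), 0 passed 2-fold on the log2(FPKM + 1) scale in any comparison. At P2 against P0, 4 were past 0.3 higher and 1 lower, with a median of 0.21. Over all genes compared, 29.3% were past 0.3 higher and 14.0% lower, which is the background for the counts of each list below. Their largest differences at P2 were 0.73 for Pold4, the smallest polymerase delta subunit, from 38, 66 and 74 reads, and 0.58 for Rfc2, a clamp loader subunit. In FPKM itself the Pold4 ratio to P0 was 2.23 at P1 (interval 1.48 to 3.42) and 2.02 at P2 (interval 1.35 to 3.07). The Pold4 reads rest on a recovered length of 910 bases, while the mean of its annotated transcripts was 730. If the true reads were fewer, these intervals would be wider. Pold4 shares 24.6% of its exon bases, and 68.3% of its coding bases, with another gene on the same strand.

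Of 13 relatives of the flap, ligase and nick repair enzymes, 1 passed 2-fold at P2. This was Ercc5, which encodes XPG, a nucleotide excision repair nuclease of the FEN1 family. It measured 24.7, 49.9 and 53.6 FPKM, a P2 to P0 ratio of 2.17 (interval 2.02 to 2.34). Pif1, a helicase that lengthens flaps in yeast, measured 13.9, 8.73 and 7.18 FPKM, a difference of -0.86 at P2. The list's median at P2 was 0.01, and 2 of its 13 members were past 0.3 higher and 1 lower. Xrcc1, a scaffold of nick repair, differed by 0.62 and was the other gene past 0.3 higher.

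Of 15 RPA-binding partners, 14 were compared at P2 against P0 and 0 passed 2-fold, with a median of -0.04. The largest difference was 0.67 for Rfwd3, a ubiquitin ligase that acts on RPA. In all 3 were past 0.3 higher and 1 lower. Of 11 genes of RNA-DNA hybrids and of Aicardi-Goutières syndrome, a human disease in which RNase H2 genes are among those mutated, 8 were compared, and 0 passed 2-fold. The median was -0.08, with 1 gene past 0.3 higher and 3 lower. Top1, the topoisomerase that also cuts at ribonucleotides in DNA, differed by -0.59 at P2, and Aqr, a helicase gene, by 0.45. Trex1 was listed at 0 in all libraries, and 100% of its exon bases lie under exons of Atrip on the same strand.

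The 8 proliferation markers were counted beside these values, and Pcna is also among the lagging strand partners. Their median difference at P2 against P0 was 0.05, with 1 gene past 0.3 in each direction. Rrm2, a ribonucleotide reductase subunit, differed by 0.45 and Mki67 by -0.65. Whether the share of cells in S phase differed between the libraries was not measured, and in bulk RNA fewer cells with a transcript and less RNA per cell cannot be told apart.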

How the data were processed

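The authors deposited 1 table of FPKM for 50043 gene IDs and 3 libraries. Per the submitters' processing notes, Bowtie2 2.0.6, TopHat2 2.0.9 and mm9 were used. The read counter, its annotation and strand handling were not given in the sources used here. Symbols came from GENCODE M21, which was also used for transcript lengths and for exon sharing between genes. No coordinates of the files are given, and those of promoters are RefSeq's on GRCm38.p6. Library totals were found as the whole number that 1-read genes of 1 transcript repeat most often. Reads were then whole for 26291 of 26291 IDs above 0, within a relative tolerance of 1e-09 across the libraries. An ID above 0 in 1 library alone is whole by construction. A common factor was set by the mean transcript length, and reads summed to between 100.3 and 100.34% of the totals. Of the lengths behind these reads, 82.2% lay within 1 base of that mean, and for the rest the factor is less sure. Among members, Rnaseh1 had 1457 bases against a mean of 1293.75, and Rnaseh2c 686 against 689.5. Ratios have Clopper-Pearson intervals conditional on the summed reads of both libraries. Differences used log2(FPKM + 1). A count model across passages was not fitted, since there is 1 library per passage. Members, lists, thresholds and motifs were chosen with earlier results of these data known. The named genes are all members, Pold3, the 2 genes of each partner or marker list with the largest difference at P2 against P0, and genes of these lists past 2-fold. One gene that this rule names is not reported here. Tmem258, Gm10143 and other overlapping genes, Postn, Trex1 and Xrcc1 were named after their values were seen. Alternatives tried were median-of-ratios scaling, quantile normalization, rescaling each library to 1000000, 0.1 in place of 1 as pseudocount, FPKM 5 as floor or no floor, and the table without unnamed models or short RNA genes. Added after seeing the data were leaving out Fen1 or genes with over 80% shared exon bases, other gene lengths, and the interval counts after median-of-ratios scaling. The steps were run on simulated reads drawn with the same transcript lengths and library totals that the recovery used. That run checks the code and cannot check whether those lengths hold for the data. Tools were scipy 1.17.1, numpy 2.4.6, matplotlib 3.10.9 and pandas 2.3.3 under Python 3.11.15.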

Additional observations from a re-analysis of the deposited data

How the results depend on the processing

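The count of 0 members past 2-fold was the same under every alternative run, in all 3 comparisons. With median-of-ratios scaling, past 0.3 were 1 member at P1 and 0 at P2 against P0, where the deposited values gave 3 and 2, and the medians were 0.017 and 0.095. Quantile normalization left 1 member past 0.3 at P2 against P0. For P2 against P1, 1 member was past 0.3 with a pseudocount of 0.1 and 1 with rescaling to 1000000, against 0 as deposited. Of the 30 differences of single members, 1 changed sign under each scaling: Lig1 at P1 against P0 with median-of-ratios scaling, Fen1 at P2 against P0 with quantile normalization and Rpa3 at P2 against P1 with rescaling. With a pseudocount of 0.1, 0 did. Over all genes, those past 2-fold numbered 1254, 1855 and 635 with a pseudocount of 0.1 (P1 against P0, P2 against P0, P2 against P1), and 342, 599 and 84 with a floor of FPKM 5, where the deposited values gave 621, 1061 and 226. For P2 against P1 they numbered 380 with rescaling and 116 without short RNA genes and unnamed models, of which 68.1% were higher, against 46.9% with all IDs. A pseudocount of 0.1 gave 58.3%. Without Fen1 the members' medians were 0.22, 0.22 and 0.00. The cause of these shifts was not tested. No paired analysis was possible because each passage has 1 library, and no library could be left out. The comparison of Fen1 between libraries, at 36 to 63 reads, was the least precise among the members, and why its reads are few was not tested.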
